A study of Mus musculus with 16 samples.

Results

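Oscillospiraceae, a family of anaerobic gut bacteria of the order Oscillospirales in the class Clostridia, accounted for 180 of the 1901 amplicon sequence variants (ASVs) in 16S rRNA profiles of the mouse colon. An ASV is a distinct 16S sequence recovered from the reads, the finest unit such data resolve. The members were all ASVs that the authors' taxonomy places in this family, so their number did not depend on how they varied. They fell into 7 named genera and a remainder of 97 ASVs without a genus name, of which 62 carried the family name only and 35 had "uncultured" in the genus field. The files hold counts and names for each ASV but no sequences, and none is printed here.

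The study profiled 16 mice in 4 groups of 4, crossing genotype with treatment. Animals were wild type (WT) or MERTK knockout (MERTK-/-, here KO), of C57BL/6J background and 8 to 10 weeks of age. For 7 days they drank either sterile water or dextran sulfate sodium (DSS) at 2.5% (w/v), an agent that damages the epithelium of the colon. Per the labels, distal colon was collected on day 8 and rinsed of faecal residue. The same labels describe an RNA-seq preparation, so whether the 16S counts come from the rinsed tissue is not certain. The MERTK kinase is a receptor through which phagocytes clear dying cells. How the knockout was made and whether the genotypes were littermates could not be read from the labels. Cages are not given for any mouse, so neither genotype nor treatment can be told apart from cage. The tests below take the 4 mice of a group as independent, which could not be checked. A 16S table does not read the Mertk gene. The genotype and treatment fields of the labels read the same for every mouse, so genotype and treatment rest on the sample titles alone.

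Every library had 96469 counts. A share is given in percent of these, 3 counts (0.00311%) were taken as the floor of detection in a library, and both cover counting error only. A share is relative. It cannot tell more cells of a taxon from fewer of the others, and genomes differ in their number of 16S gene copies. Lists of 4 values below run from mouse 1 to mouse 4 of the group.

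Members of the family ferment carbohydrates and amino acids in the hindgut without oxygen, and many have been seen only as sequences. Oscillibacter is named for cells that oscillate in motion, and its type species produces valerate. Intestinimonas produces butyrate from sugars and from lysine. Colidextribacter was described from the human colon. UCG-003, UCG-005, UCG-007 and NK4A214_group are placeholder names that reference taxonomies give to groups with few or no cultured members.

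The family held 4.60 ± 1.02% of counts in WT mice drinking water and 6.16 ± 2.94% in those on DSS. In KO mice it held 6.90 ± 1.80% with water and 10.4 ± 2.66% with DSS (mean ± SD, n = 4 each). WT mice on water had 4.10%, 5.98%, 4.70% and 3.61%. WT mice on DSS had 3.69%, 10.4%, 5.23% and 5.29%. Mouse 2 of this group stood at about the mean of the KO mice on DSS, and the other 3 mice lay within the range on water. KO mice had 6.39%, 6.96%, 4.97% and 9.29% on water and 14.2%, 8.08%, 9.59% and 9.68% on DSS. The groups overlapped in all 4 pairwise comparisons. None passed the two-sided exact permutation test, in which 4 against 4 mice can give no p below 0.0286. The difference was 3.49 percentage points for DSS in KO mice (1.51-fold, exact p = 0.0571), 2.31 points for KO against WT mice on water (1.5-fold, exact p = 0.0571), 4.23 points for KO against WT mice on DSS (1.69-fold, exact p = 0.114) and 1.56 points for DSS in WT mice (1.34-fold, exact p = 0.429). After Benjamini-Hochberg adjustment over the 12 tests of share, observed ASVs and diversity, these p-values were 0.229, 0.229, 0.245 and 0.571 by the same exact permutation tests.

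**Figure D1:**
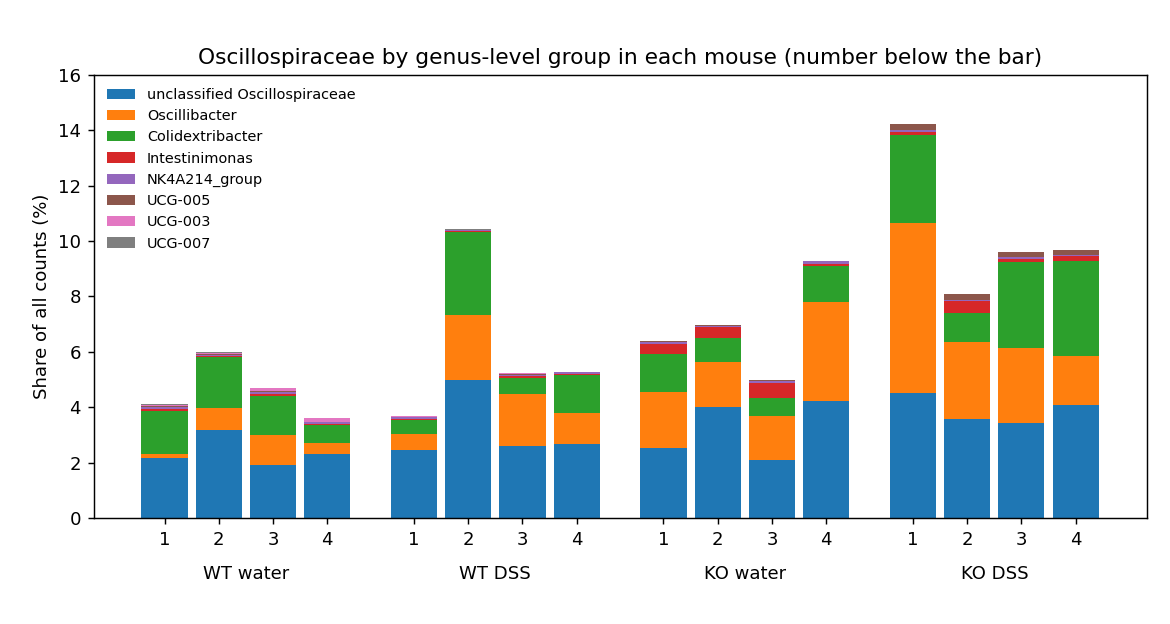
Stacked bars give the share of all counts (%, linear axis from 0) of each of the 8 genus-level groups of Oscillospiraceae in each mouse, with the mouse number below its bar. Bar heights run from 3.61% in a WT mouse on water to 14.2% in a KO mouse on DSS, and WT DSS mouse 2 (10.4%) stands above the other 3 mice of its group.

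The scale on which the family was compared decided whether its genotype difference passed. In edgeR's quasi-likelihood test over 57 families scaled by library total, the log2 fold change of KO against WT mice was 0.59 on water (adjusted p = 0.130) and 0.76 on DSS (adjusted p = 0.0667). These other scales were set beside it for the family after seeing the data. DESeq2 gave 1.28 on water (adjusted p = 0.00554) and 1.24 on DSS (adjusted p = 0.00964), and edgeR with TMM factors 0.80 (adjusted p = 0.106) and 1.17 (adjusted p = 0.0345). On centred log-ratios limma gave 2.18 (adjusted p = 0.00115) and 1.25 (adjusted p = 0.0559). The median over all families in KO against WT mice on water was −0.89 on library totals, −0.75 with TMM factors, −0.04 by DESeq2 and 0.98 on centred log-ratios. On library totals it was −0.43 with no filter, −0.52 under a filter of 6 libraries and −1.07 with only the compared groups, beside 0.59 for the family. The family stood above the median family in each of these, by a margin that differed between them. In KO mice, DSS gave the family a log2 fold change of 0.59 on library totals, where the median family was at 0.21, and −0.43 on centred log-ratios, where the median family was at −0.79. The sign flipped with a shift common to all families, and the family lay above the median family on both of these scales. This place depended on which families were kept. For DSS in KO mice, with the family at 0.59 on library totals, the median family was at 0.59 under a filter of 6 libraries. With only the compared groups the median family was at 0.71, above the family. The interaction, or how much the DSS effect of KO mice exceeded that of WT mice, was a log2 fold change of 0.17 (SE 0.43, edgeR adjusted p = 1.00).

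Among Clostridia counts alone, the family held 12.6 ± 2.12% (WT, water), 14.7 ± 6.54% (WT, DSS), 13.8 ± 2.99% (KO, water) and 22.1 ± 3.74% (KO, DSS) (mean ± SD, n = 4). KO mice on DSS ran from 18.9% to 26.8% and KO mice on water from 11.5% to 18.2%, so these groups did not overlap, with a difference of 8.33 points (exact permutation p = 0.0286, the smallest possible, not adjusted). Lachnospiraceae, of the same class, had mean shares of all counts of 24.6%, 26.0%, 38.8% and 26.3% in the order just given. The other Oscillospirales together (163 ASVs) had 3.92%, 4.16%, 2.45% and 4.76% in the same order. Muribaculaceae, of the phylum Bacteroidota, had 27.1%, 17.9%, 24.5% and 14.3%. These 3 lists are given as means only and were not tested as sums.

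Member ASVs with a count numbered 61, 79, 72 and 69 in WT mice on water and 66, 78, 48 and 75 in WT mice on DSS. It was 65, 63, 63 and 62 in KO mice on water and 80, 73, 81 and 78 in KO mice on DSS. The KO mice on water were nearly alike, and every KO mouse on DSS had more members than every KO mouse on water. The means were 63.2 ± 1.26 and 78 ± 3.56 (SD, n = 4), a difference of 14.75 ASVs (exact permutation p = 0.0286, adjusted p = 0.229 over 12 tests). DSS in WT mice differed by −3.5 ASVs (exact permutation p = 0.714), and KO against WT mice by −7 on water (exact permutation p = 0.143) and by 11.25 on DSS (exact permutation p = 0.171). The difference between the 2 DSS effects was not tested. Counting only ASVs with at least 10 counts, KO mice on DSS had 64.8 ± 2.63 and WT mice on DSS 50.2 ± 8.46, a difference of 14.5 (exact permutation p = 0.0286, the smallest possible, not adjusted). This was an alternative cut-off to the main measure, which did not pass for these groups. The Shannon index within the family was 3.44 ± 0.201, 2.88 ± 0.438, 3.16 ± 0.244 and 3.07 ± 0.199 in the order above. None of its 4 comparisons passed, with exact permutation p from 0.0857 for DSS in WT mice to 0.543 for DSS in KO mice.

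A few ASVs carried most of the family. The most abundant held 14.4% of all family counts, the top 5 held 43.3% and the top 20 held 70.7%. The leading ASV differed from mouse to mouse. Among WT mice on water it was ASV310, ASV101, ASV101 and ASV31, and among WT mice on DSS ASV265, ASV31, ASV17 and ASV17. Among KO mice on water it was ASV17, ASV97, ASV17 and ASV26, and among KO mice on DSS ASV17, ASV26, ASV41 and ASV41. Members counted in all 16 mice numbered 12 (6.67% of the family), compared with 46 of all 1901 ASVs (2.42%). Those 12 held 45.9% of family counts, from 32.1% to 66.7% per mouse. They were ASV17 of Oscillibacter, ASV101, ASV163 and ASV207 of Colidextribacter, ASV359 of NK4A214_group, and ASV26, ASV31, ASV97, ASV195, ASV227, ASV275 and ASV432 without a genus name.

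WT and KO mice shared a minority of the members. Of the 180 ASVs, 80 (44.4%) had a count in both genotypes, 59 (32.8%) in WT mice only and 41 (22.8%) in KO mice only. Over all 1901 ASVs the split was 30.7%, 40.5% and 28.9%. The members of WT mice only held 4.26% and those of KO mice only 4.05% of family counts, where ASVs of 1 genotype only held 9.34% and 7.32% of counts over all ASVs. On water 55 members were shared, 48.7% of the 113 seen in WT mice and 61.1% of the 90 seen in KO mice, where 32% and 41.7% of all ASVs were shared. On DSS 67 were shared, 60.9% of the 110 in WT mice and 61.5% of the 109 in KO mice, where 48.1% and 53.9% of all ASVs were. KO mice on DSS had 31 members that no KO mouse on water had, 28.4% of those they held, where 43.2% of all ASVs were new in the same way. Of the 31, 14 (45.2%) were also seen in WT mice, beside 46.5% over all ASVs. Conversely, 12 members of KO mice on water (13.3%) had no count in KO mice on DSS, beside 40.4% over all ASVs. In WT mice, 26 members were seen on DSS only (23.6% of those on DSS) and 29 on water only (25.7% of those on water), beside 36.6% and 43.1% over all ASVs. None of these overlaps was tested.

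**Figure D2:**
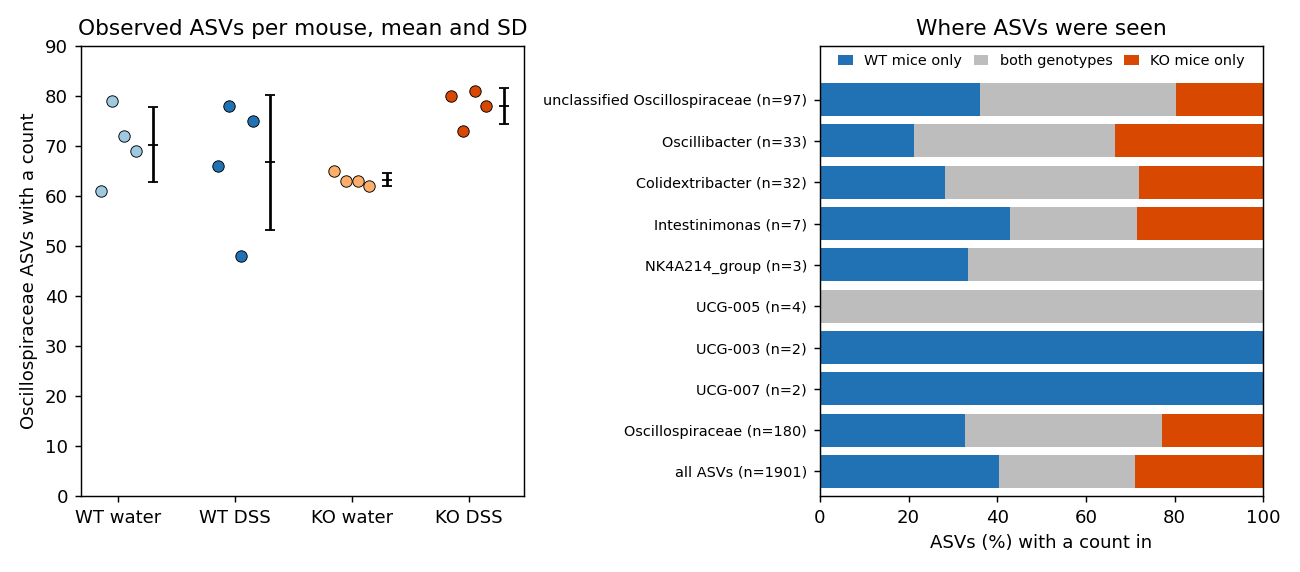
Left, the number of Oscillospiraceae ASVs with a count in each mouse (points), with mean and SD (bars) for 4 mice per group. The 4 KO mice on DSS (73 to 81) lie above the 4 KO mice on water (62 to 65). Right, the percent of ASVs with a count in WT mice only, in both genotypes or in KO mice only, by genus-level group and for the family and all ASVs. Both UCG-003 ASVs and both UCG-007 ASVs were seen in WT mice only.

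Counts of single ASVs were compared with edgeR's quasi-likelihood test over the 1056 ASVs that reached 10 counts in total and were seen in 3 or more libraries, called at a Benjamini-Hochberg adjusted p below 0.05. Of the 180 members, 121 passed that filter. The other 59 held 1.67% of family counts, and 43 members were seen in 1 mouse. Because the filter keeps an ASV that is present in a single group, the counts below describe the tested members and not all 180. In KO against WT mice on water, 45 tested members were called (20 higher, 25 lower), or 37.2%, where 52.8% of all tested ASVs were called (20.8% higher, 32% lower). On DSS, 40 were called (24 higher, 16 lower), or 33.1%, where 37.7% of all tested ASVs were called (19% higher, 18.7% lower). DSS in WT mice called 6 members (3 higher, 3 lower), or 4.96%, where 16.9% of all tested ASVs were called (7.86% higher, 9% lower). DSS in KO mice called 9 (6 higher, 3 lower), or 7.44%, where 13.4% of all were called (7.2% higher, 6.16% lower). Counting both directions together, the members' share was below the background in each comparison. By direction, the share of members called higher in KO mice on DSS (19.8%) was near the background of 19%. The interaction called 0 members by edgeR, where 5.59% of all tested ASVs were called (3.12% higher, 2.46% lower). At an unadjusted p below 0.05, 20 members passed it in edgeR, and DESeq2 called 10.

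**Figure D3:**
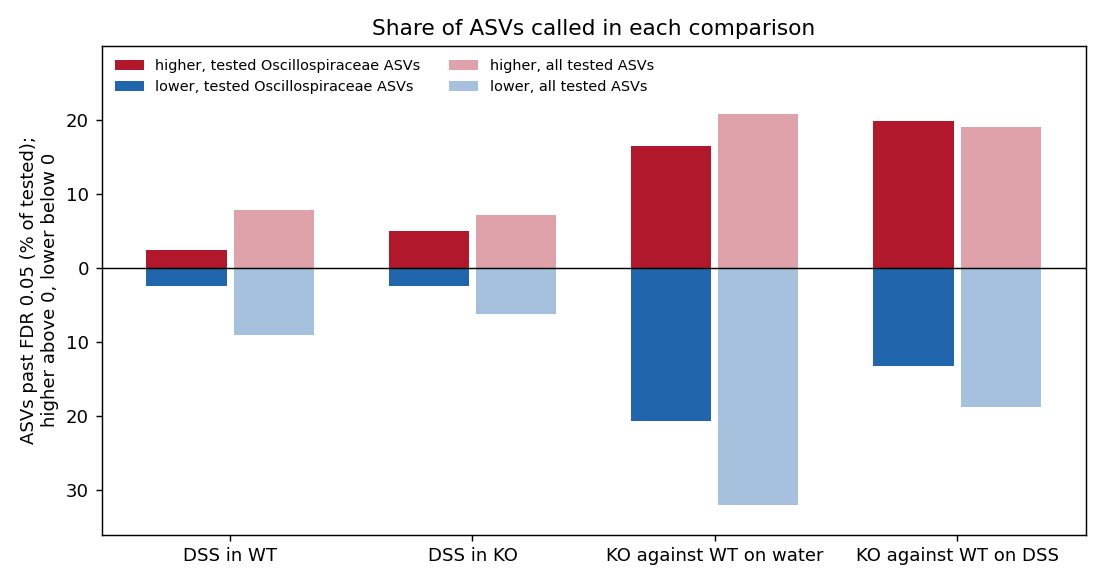
Percent of tested ASVs past an adjusted p of 0.05 in edgeR, higher above 0 and lower below 0, for the 121 tested Oscillospiraceae ASVs (solid) and all 1056 tested ASVs (pale), in 4 comparisons. The solid bars reach 37.2% in both directions together for KO against WT mice on water and 4.96% for DSS in WT mice.

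The median log2 fold change of the tested members was 0.07 in KO against WT mice on water, beside −0.18 over all tested ASVs. It was 0.92 on DSS, beside 0. For DSS it was 0 in WT mice and 0.22 in KO mice, beside 0 over all tested ASVs in both. The split of the water calls was 20 higher and 25 lower on library totals, 22 and 19 with TMM factors and 27 and 18 on centred log-ratios. The median over all tested ASVs moved alongside, from −0.18 to 0 and 0.20, and the members' median was 0.07, 0.60 and 0.81. Leaving out KO mouse 1 on water left 28 calls and leaving out KO mouse 2 left 29. On DSS, 22 calls were left without WT mouse 2, 24 without KO mouse 3 and 25 without KO mouse 4.

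The genotype differences recurred in part between the water and DSS groups, which share no mice. Of the members higher in KO mice, 10 were called in both, which is 50% of the 20 on water and 41.7% of the 24 on DSS, beside 52.3% and 57.2% over all called ASVs. Of those lower in KO mice, 12 were called in both, 48% of the 25 on water and 75% of the 16 on DSS, beside 42.0% and 72.1%. No member was called in opposite directions, and 6 of all tested ASVs were. Of the 45 members called on water, 42 (93.3%) had no count in any mouse of the lower group, beside 92.1% of all called ASVs. On DSS it was 26 of 40 (65%), beside 63.8%. The members' shares were near those of all called ASVs. For DSS, no member was called in both genotypes in the same direction, where 15 higher and 14 lower of all tested ASVs were, and the comparison of calls does not show that the DSS effects differed.

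At the level of genera, the test covered 123 genus-level groups, the family's 8 among them. In KO against WT mice on water 4 of the 8 were called (2 higher, 2 lower), where 39.8% of all were called (13.8% higher, 26% lower). On DSS 3 were called (1 higher, 2 lower), where 22% of all were called (8.94% higher, 13% lower). DSS called 0 of the 8 in either genotype by edgeR, where 31.7% of all were called in WT mice (11.4% higher, 20.3% lower) and 32.5% in KO mice (17.1% higher, 15.4% lower). At an unadjusted p below 0.05, 0 of the 8 passed for DSS in WT mice and 2 in KO mice, and DESeq2 called 0 and 1. The interaction called 0 of 8 by edgeR, where 8.94% of all were called (4.88% higher, 4.07% lower), with 0 at an unadjusted p below 0.05 and 0 by DESeq2.

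**Figure D4:**
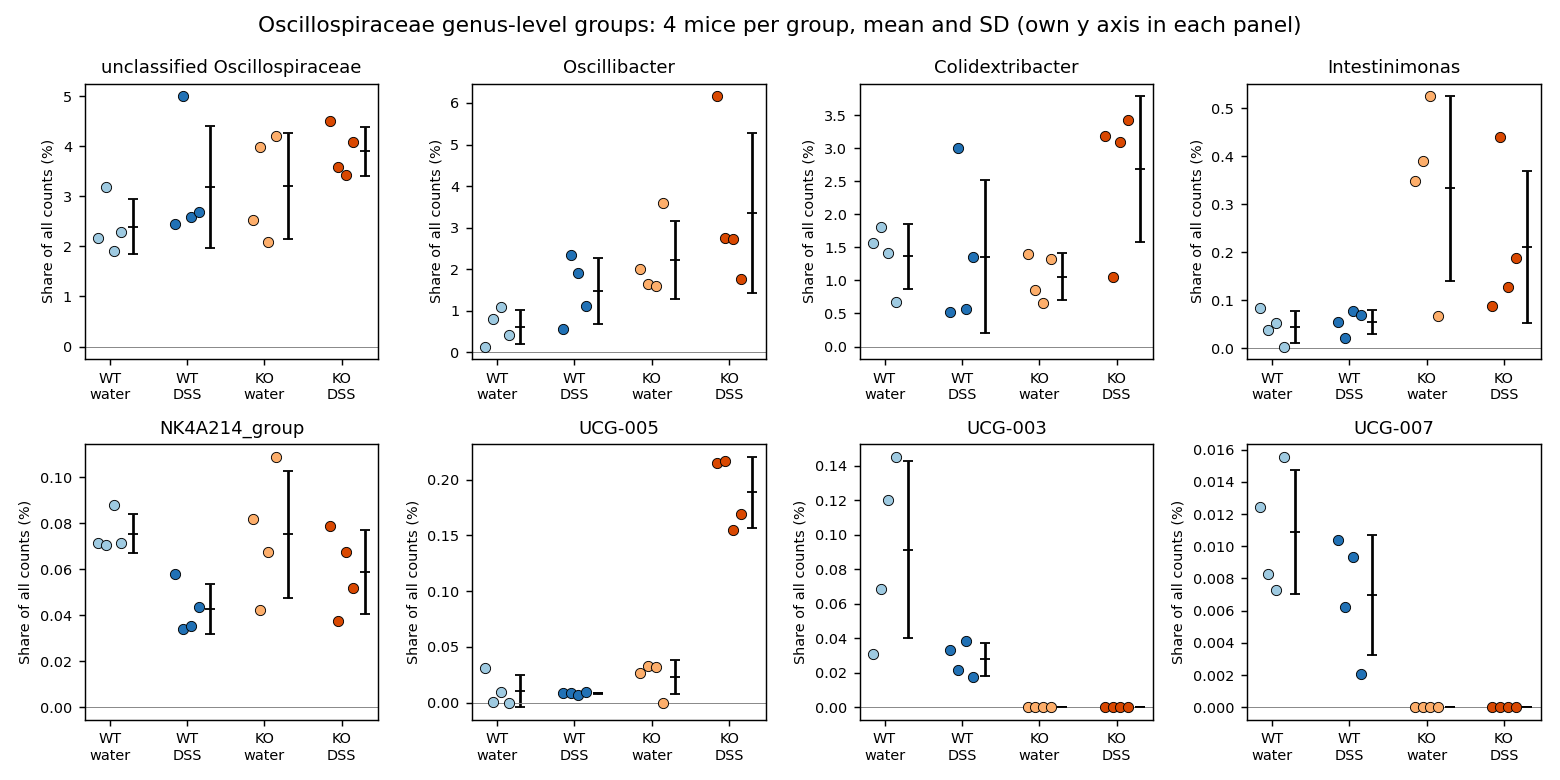
Share of all counts (%, linear, own axis in each panel) of the 8 genus-level groups of Oscillospiraceae in each mouse (points), with mean and SD (bars), n = 4 per group. Oscillibacter runs from 0.139% to 1.09% in WT mice on water and from 1.60% to 3.59% in KO mice on water. UCG-003 and UCG-007 lie at 0 in all KO mice, and UCG-005 stands at 0.154% to 0.217% in KO mice on DSS.

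Oscillibacter (33 ASVs) was higher in KO than in WT mice on water. It made up 0.139%, 0.798%, 1.09% and 0.409% in WT mice on water and 2.01%, 1.64%, 1.60% and 3.59% in KO mice on water. Every KO mouse stood above every WT mouse. The means were 0.609 ± 0.420% and 2.21 ± 0.936% (SD, n = 4), a 3.63-fold difference with a log2 fold change of 1.86 (SE 0.63, edgeR adjusted p = 0.0288). The call was lost without WT mouse 1 (adjusted p = 0.0582), WT mouse 4 (0.0712) or KO mouse 4 (0.0609) in the same edgeR test. On DSS the genus held 1.48 ± 0.791% in WT mice and 3.36 ± 1.93% in KO mice, a 2.27-fold difference with overlapping groups that was not called. Of the family's own counts it made up 12.8% and 23.8% in WT mice and 31.5% and 31.1% in KO mice, on water and DSS, as means without a test.

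ASV17, which was counted in every mouse, made up 30.9% of the genus in WT mice and 35.6% in KO mice on water, and 76.0% and 58.1% on DSS (ratios of mean shares). ASV17 had 33, 352, 272 and 70 counts in WT mice on water and 251, 1767, 1531 and 795 in WT mice given DSS. The KO mice had 896, 303, 686 and 1152 on water and 4376, 1339, 1282 and 521 on DSS. Means were 0.188%, 1.13%, 0.787% and 1.95% of counts, with wide overlap between treated groups. Neither DSS in WT mice (5.98-fold, edgeR adjusted p = 0.0505) nor KO against WT mice on water (4.18-fold, edgeR adjusted p = 0.0512) passed. ASV82 separated the genotypes instead. It had 0 counts in all 4 WT mice on water and 574, 507, 323 and 1325 in KO mice on water, at least 227-fold higher against the floor of 3 counts per library (edgeR adjusted p = 0.000181). On DSS it had 4, 7, 0 and 0 counts in WT mice and 814, 207, 171 and 452 in KO mice (edgeR adjusted p = 0.00269). The WT mean on DSS was below the floor, so no fold is given. The small WT counts on DSS were also called higher than the 0 on water (edgeR adjusted p = 0.0472), a call lost in 4 of 8 alternative settings and in 14 of 16 fits without 1 mouse.

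Other Oscillibacter ASVs lay on either side. ASV390 had 90, 67, 88 and 218 counts in KO mice on DSS and 0 in all WT mice on DSS, at least 38.6-fold higher (edgeR adjusted p = 0.00904), and in KO mice on water it had 4, 0, 3 and 23. ASV543 was seen in WT mice only, with 12, 39, 23 and 15 counts on water and 0, 37, 146 and 61 on DSS. KO mice had at least 7.42-fold less on water (edgeR adjusted p = 0.0135) and at least 20.3-fold less on DSS (edgeR adjusted p = 0.0119), or at least 10.9-fold without WT mouse 3. ASV164 had 43, 337, 254 and 462 counts in KO mice on water and 22, 47, 6 and 0 in KO mice on DSS and was not called (edgeR adjusted p = 0.0667). In all, 2 of 19 tested Oscillibacter ASVs were higher and 1 lower in KO mice on water, and 5 higher and 1 lower on DSS. That was 15.8% and 31.6% called, beside 52.8% and 37.7% of all tested ASVs.

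Intestinimonas (7 ASVs) was also higher in KO mice on water. It made up 0.0829%, 0.0373%, 0.0529% and 0.00311% in WT mice on water and 0.348%, 0.391%, 0.526% and 0.0674% in KO mice on water. KO mouse 4 fell within the WT range, and the other 3 KO mice stood above it. The means were 0.0441 ± 0.0332% and 0.333 ± 0.193% (SD, n = 4), a 7.56-fold difference with a log2 fold change of 2.91 (SE 0.90, edgeR adjusted p = 0.0192). The call held in each of 9 alternative settings and each of 16 fits without 1 mouse. On DSS the means were 0.0549 ± 0.0247% in WT and 0.211 ± 0.159% in KO mice, 3.84-fold with no overlap, and the test did not pass (edgeR adjusted p = 0.0948).

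The genus shared no ASV between the genotypes on water, where 4 of its ASVs were seen in WT mice and 2 others in KO mice. ASV198 had 0 counts in WT mice on water and 336, 211, 268 and 50 in KO mice on water, at least 72.1-fold higher (edgeR adjusted p = 0.00349). ASV382 had 0 counts in all 8 WT mice and 0, 166, 239 and 15 in KO mice on water, at least 35-fold higher (edgeR adjusted p = 0.00858), or 20.1-fold without KO mouse 3. ASV542 was the reverse. It had 49, 23, 37 and 3 counts in WT mice on water and 0 in all 4 KO mice on water (edgeR adjusted p = 0.011). The higher level of the genus in KO mice was thus the sum of ASVs that moved in both directions. On DSS, ASV198 appeared in WT mice 1 and 4 (10, 0, 0 and 66 counts) and was called higher than on water (edgeR adjusted p = 0.0345). That was at least 6.33-fold, and 1.11-fold against the floor without WT mouse 4. The call was lost without WT mouse 4 (edgeR adjusted p = 0.0905) or WT mouse 1 (0.0538) on DSS, or any 1 WT mouse on water (0.0588 to 0.065). ASV542 appeared in KO mice on DSS (14, 0, 17 and 37 counts) and was called higher than on water (edgeR adjusted p = 0.0394). ASV542 lay outside the rule for named ASVs and was chosen after its values were seen.

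Colidextribacter (32 ASVs) did not pass in any of the 4 comparisons as a genus. Of its 22 tested ASVs, 10 (45.5%) were called on water and 7 (31.8%) on DSS in KO against WT mice, beside 52.8% and 37.7% of all tested ASVs. It made up 1.56%, 1.81%, 1.41% and 0.670% in WT mice on water and 0.515%, 3.00%, 0.571% and 1.35% in WT mice given DSS. The KO mice had 1.40%, 0.859%, 0.651% and 1.32% on water and 3.18%, 1.05%, 3.10% and 3.42% on DSS. KO mice 1, 3 and 4 on DSS stood above all other mice of the study, and KO mouse 2 lay within the range on water. The means of KO mice were 1.06 ± 0.360% and 2.68 ± 1.10% (SD, n = 4), 2.54-fold, with a log2 fold change of 1.35 (SE 0.59, edgeR adjusted p = 0.0914).

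That level on DSS was largely ASV41. ASV41 had 2096, 146, 1948 and 2574 counts in KO mice on DSS and 559, 0, 0 and 34 in KO mice on water. In WT mice it had 19, 415, 130 and 0 on water and 45, 58, 34 and 56 on DSS. With a mean of 1.75 ± 1.1% in KO mice on DSS against 0.05% in WT mice on DSS, the groups did not overlap and differed 35-fold, but the test did not pass (log2 fold change 5.13, SE 2.06, edgeR adjusted p = 0.0585). ASV101 was lower on DSS in WT mice. It had 346, 665, 525 and 354 counts in WT mice on water and 23, 105, 133 and 42 in WT mice on DSS. All 4 mice on DSS lay below all 4 on water, from a mean of 0.490 ± 0.158% to 0.0785 ± 0.0537%, which is 6.24-fold lower (log2 fold change −2.64, SE 0.68, edgeR adjusted p = 0.0192). The call was lost with TMM factors (edgeR adjusted p = 0.0591), with no filter (0.0903) and with 2 other settings. KO mice had 152, 144, 146 and 249 counts on water and 164, 169, 103 and 168 on DSS, and the 2 ranges overlapped.

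Presence or absence separated other Colidextribacter ASVs by genotype. ASV312 had 47, 198, 128 and 81 counts in WT mice on water, 199, 69, 10 and 59 in WT mice on DSS, 0 in all KO mice on water and 3 in a single KO mouse on DSS. KO mice had at least 37.8-fold less on water (edgeR adjusted p = 0.00144) and less on DSS (edgeR adjusted p = 0.00965). ASV405 and ASV454 were the converse, with 0 counts in all 8 WT mice. ASV405 had 81, 232, 144 and 13 counts in KO mice on water and 22, 0, 20 and 0 on DSS, and was at least 39.2-fold higher on water (edgeR adjusted p = 0.00982). ASV454 had 18, 41, 20 and 110 counts in KO mice on water and 111, 0, 18 and 91 on DSS. It was at least 15.8-fold higher on water (edgeR adjusted p = 0.0107; 8.78-fold without KO mouse 4) and 18.3-fold on DSS (edgeR adjusted p = 0.0136; 12.1-fold without KO mouse 1). In the genus 5 of 22 tested ASVs were higher and 5 lower in KO mice on water, and 6 higher and 1 lower on DSS.

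In 3 further calls of the genus, 1 mouse held most or all of the counts. ASV310 had 795, 25, 0 and 0 counts in WT mice on water and was called at least 68.3-fold lower in KO mice (edgeR adjusted p = 0.0413), which was 2.78-fold without WT mouse 1. That call was lost without any 1 KO mouse on water (edgeR adjusted p from 0.0714 to 0.075). ASV551 had 279, 19, 0 and 0 counts in KO mice on water and was called at least 24.8-fold higher (edgeR adjusted p = 0.0409), which was 2.11-fold without KO mouse 1. That call was lost without any 1 WT mouse on water (edgeR adjusted p from 0.0677 to 0.0701). ASV87 was counted on water in WT mouse 3 only, at 83 counts, and was called lower in KO mice (edgeR adjusted p = 0.0411). That call was lost without WT mouse 3 or any 1 KO mouse on water (edgeR adjusted p from 0.0714 to 0.0738 for the KO mice). It was also lost with TMM factors (edgeR adjusted p = 0.0512), with mouse number as a block (0.139) and by limma on centred log-ratios (adjusted p = 0.552), among other settings. On DSS ASV87 had 16, 2465, 57 and 692 counts in WT mice and 17, 16, 0 and 25 in KO mice and was not called. ASV409 had 235, 0, 0 and 138 counts in KO mice on DSS and 0 in WT mice on DSS, and was called at least 31.1-fold higher (edgeR adjusted p = 0.0495), or 15.3-fold without KO mouse 1. The call was lost without KO mouse 1 (edgeR adjusted p = 0.0875), KO mouse 4 (0.0808) or any 1 WT mouse on DSS (0.0801 to 0.0859). DESeq2 (adjusted p = 0.0531) and limma on centred log-ratios (0.124) did not call it. On water ASV409 was counted in WT mice only, at 20, 104, 0 and 0, and was not called.

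**Figure D5:**
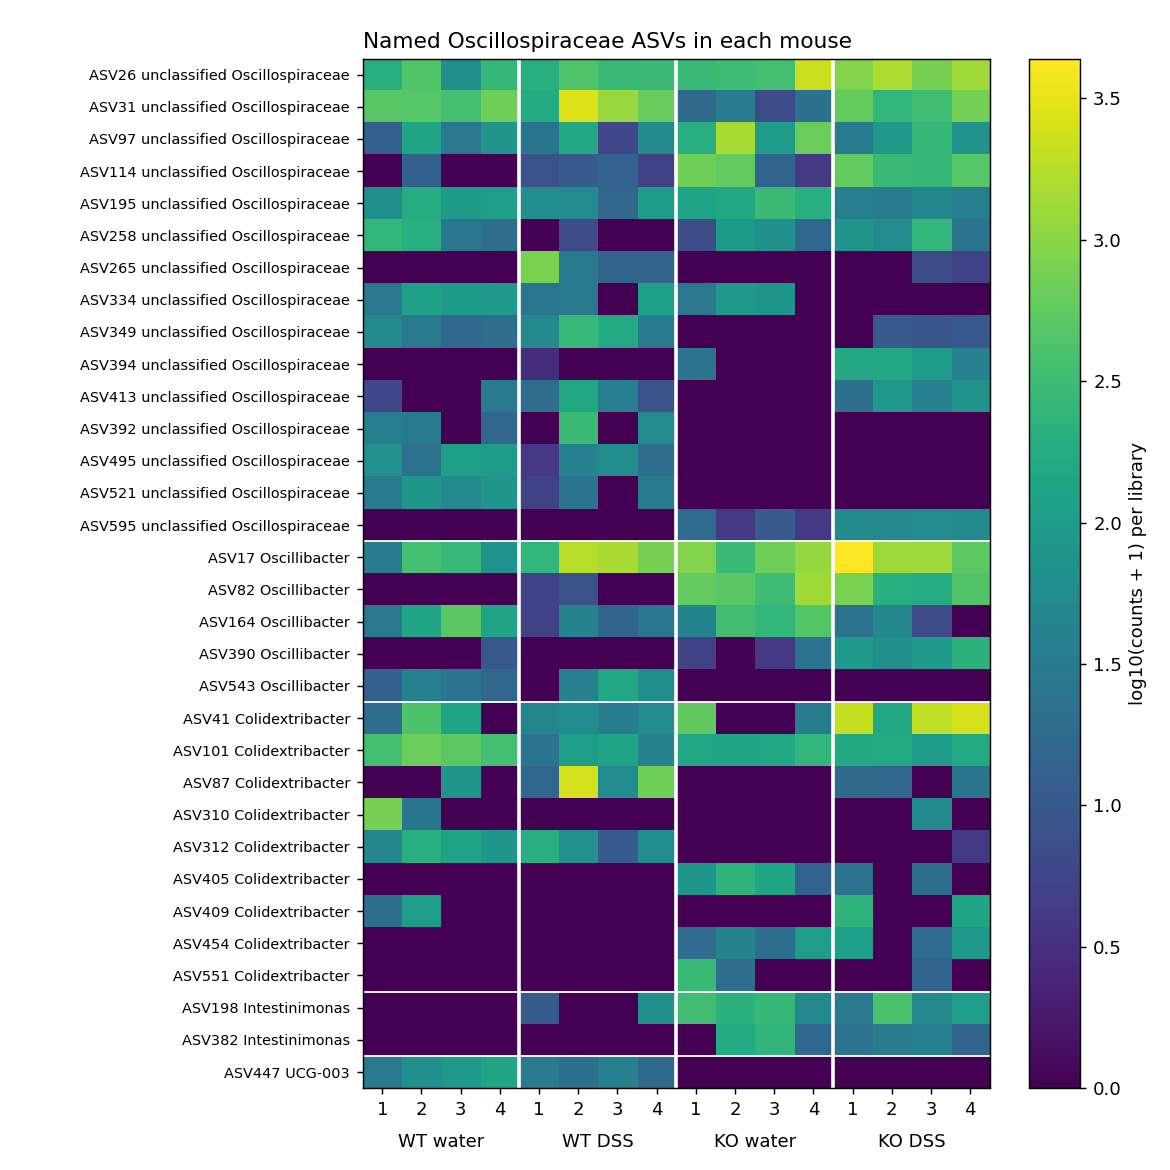
Colour gives log10(counts + 1) per library for the 32 named ASVs (rows, ordered by genus-level group) in the 16 mice (columns, 4 per group, separated by white lines). Dark blocks over the 8 KO mice mark ASVs such as ASV447, ASV495 and ASV521 that have counts in WT mice only, and dark blocks over the WT mice on water mark ASV82, ASV198 and ASV454.

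The placeholder groups were rare, and UCG-003 and UCG-007 were counted in WT mice only. UCG-003 (2 ASVs) held 0.0311%, 0.0684%, 0.120% and 0.145% in WT mice on water and 0.0332%, 0.0218%, 0.0384% and 0.0176% in WT mice on DSS, and had no count in any of the 8 KO mice. It was at least 29.3-fold lower in KO mice on water (edgeR adjusted p = 0.000258) and at least 8.92-fold lower on DSS (edgeR adjusted p = 0.00149). ASV447 made up most of it, with 30, 66, 85 and 140 counts in WT mice on water and 32, 21, 37 and 17 on DSS. UCG-007 (2 ASVs) was rarer still. It held 0.0124%, 0.00829%, 0.00726% and 0.0155% in WT mice on water and 0.0104%, 0.00622%, 0.00933% and 0.00207% on DSS, again with no count in KO mice. It was at least 3.5-fold lower on water (edgeR adjusted p = 0.00279) and at least 2.25-fold lower on DSS (edgeR adjusted p = 0.00692). For both groups a count of 0 in a library allows a share of up to 0.00311%.

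UCG-005 (4 ASVs) stood highest in KO mice on DSS. It held 0.0311%, 0.00104%, 0.00933% and 0% in WT mice on water and 0.00829%, 0.00829%, 0.00726% and 0.00933% in WT mice given DSS. The KO mice had 0.0270%, 0.0332%, 0.0321% and 0% on water and 0.215%, 0.217%, 0.154% and 0.169% on DSS. All 4 KO mice on DSS stood above the 12 other mice. Against WT mice on DSS the difference was 22.8-fold (log2 fold change 4.49, SE 1.25, edgeR adjusted p = 0.0152). Against KO mice on water it was 8.18-fold and did not pass (log2 fold change 3.02, SE 1.16, edgeR adjusted p = 0.0524), though it passed in 5 of 9 alternative settings. The interaction did not pass (log2 3.34, SE 1.60, unadjusted p = 0.0509, edgeR adjusted p = 0.248). The level was mostly ASV342, with 174, 195, 132 and 130 counts in KO mice on DSS and 8, 3, 0 and 0 in WT mice on DSS (edgeR adjusted p = 0.0362). ASV342 was chosen after its values were seen.

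NK4A214_group (3 ASVs) was called in no comparison. Its mean share was 0.0754%, 0.0428%, 0.0752% and 0.0588% in the order of the groups above (WT on water and DSS, then KO on water and DSS). WT mice on DSS all lay below WT mice on water, but the difference of 1.76-fold did not pass (edgeR adjusted p = 0.305). Its ASV570, chosen after its values were seen, had 0, 0, 0 and 6 counts in WT mice on DSS and 71, 19, 47 and 25 in KO mice on DSS and was called higher (edgeR adjusted p = 0.0378).

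The 97 ASVs without a genus name together held 2.39 ± 0.551%, 3.18 ± 1.22%, 3.20 ± 1.05% and 3.89 ± 0.495% of counts (SD, n = 4) in that order and were called in no comparison. WT mouse 2 on DSS had 5.00%, and the other 3 mice of its group had 2.45% to 2.68%. ASV31 was a common member that differed by both genotype and treatment. It had 494, 475, 359 and 689 counts in WT mice on water and 166, 2801, 1185 and 627 in WT mice given DSS. The KO mice had 17, 34, 6 and 21 counts on water and 597, 250, 335 and 761 on DSS. The KO mice on water were far below the other 3 groups, which overlapped one another.

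On water ASV31 was 25.9-fold lower in KO than in WT mice (0.0202 ± 0.012% against 0.523 ± 0.142%, log2 fold change −4.68, SE 0.86, edgeR adjusted p = 0.000686). In KO mice it was 24.9-fold higher on DSS (0.504 ± 0.244%, log2 fold change 4.63, SE 0.85, edgeR adjusted p = 0.00216). Both calls held in all 9 alternative settings and all 16 fits without 1 mouse. They rest on the same 4 KO mice on water and so are not independent.

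Of the 6 members higher on DSS in KO mice, 5 (83.3%) had no count in any KO mouse on water, and ASV31 was the other. Over all ASVs called higher in this comparison it was 86.8%, so the members were near the background. ASV413 had 21, 86, 40 and 73 counts in KO mice on DSS, at least 18.3-fold higher than on water (edgeR adjusted p = 0.0222), and was present in WT mice on water (5, 0, 0 and 32) and on DSS (19, 149, 35 and 7). ASV349 had 0, 10, 8 and 9 counts in KO mice on DSS (edgeR adjusted p = 0.0244), 53, 29, 16 and 20 in WT mice on water and 50, 276, 168 and 31 in WT mice on DSS. The call for ASV349 was lost with mouse number as a block (edgeR adjusted p = 0.0732) and with only the compared groups (0.0566). It was also lost without KO mouse 2 (0.0535) or 3 (0.0515) on water in the same test. The remaining 3 lay outside the rule for named ASVs and were chosen after their values were seen. ASV542 of Intestinimonas is described above, and ASV491 of Oscillibacter had 0, 32, 33 and 56 counts in KO mice on DSS (edgeR adjusted p = 0.0394) and 71, 57, 44 and 31 in WT mice on DSS. ASV653 of Oscillibacter, with 59, 12, 110 and 11 counts (edgeR adjusted p = 0.0334), was seen in KO mice on DSS only. So 4 of the 5 newly counted members were present in WT mice on DSS, and the matching share over all called ASVs was not computed. Traces between the DSS groups were also removed, by setting an ASV to 0 in a DSS group where its mean did not reach 5% of its mean in the other genotype on DSS, and 5 of the 9 calls were left. Calls for DSS in KO mice also fell to 4 without KO mouse 3 or 4 on DSS and to 5 without KO mouse 2 or 3 on water.

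The 3 members lower on DSS in KO mice were ASV334, ASV195 and ASV613. ASV334 had 27, 93, 81 and 0 counts in KO mice on water and 0 in all 4 on DSS, at least 16.8-fold lower (edgeR adjusted p = 0.0243), while WT mice had 28, 119, 95 and 93 on water and 26, 29, 0 and 115 on DSS. That call was lost with only the compared groups (edgeR adjusted p = 0.0539) and without KO mouse 3 (0.0504) or 4 (0.0515) on DSS. ASV195, counted in all 16 mice, fell from 124, 152, 305 and 200 counts to 35, 33, 44 and 36, which is 5.28-fold (log2 fold change −2.40, SE 0.76, edgeR adjusted p = 0.0456). The ranges did not overlap, but the call was lost in 5 of 9 alternative settings, with adjusted p up to 0.212 in edgeR without a filter. It was also lost without any 1 of the 8 KO mice (edgeR adjusted p from 0.052 to 0.111) and without WT mouse 3 or 4 on water. ASV613 of Colidextribacter, chosen after its values were seen, had 5, 35, 24 and 91 counts on water and 0 on DSS, at least 12.9-fold lower (edgeR adjusted p = 0.0136).

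In WT mice, ASV265 was called higher on DSS. It had 801, 29, 14 and 14 counts on DSS and 0 on water, at least 71.5-fold higher (edgeR adjusted p = 0.0242). Mouse 1 supplied most of that, and without it the value was at least 6.33-fold (edgeR adjusted p = 0.0533). ASV258 had 255, 195, 26 and 19 counts in WT mice on water and 0, 6, 0 and 0 on DSS (edgeR adjusted p = 0.0242). KO mice kept it on DSS, at 78, 57, 259 and 24 counts, and it was called higher there than in WT mice on DSS (edgeR adjusted p = 0.0143). ASV889, chosen after its values were seen, was counted in WT mice on water only, at 29, 20, 21 and 27, and was at least 8.08-fold lower on DSS (edgeR adjusted p = 0.0242). With ASV82, ASV198 and ASV101 above, these were the 6 calls for DSS in WT mice. Without WT mouse 1 on DSS, 3 calls were left.

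Among ASVs without a genus name, 10 of 67 tested were higher and 16 lower in KO mice on water, and 9 higher and 12 lower on DSS. That was 38.8% and 31.3% called, beside 52.8% and 37.7% of all tested ASVs. ASV495 had 69, 22, 116 and 100 counts in WT mice on water and 3, 40, 59 and 20 on DSS, and 0 in all 8 KO mice. In KO mice that was at least 25.6-fold lower on water (edgeR adjusted p = 0.00213) and at least 10.2-fold lower on DSS (edgeR adjusted p = 0.0064). ASV521 was also seen in WT mice only, with 30, 83, 50 and 79 counts on water and 4, 24, 0 and 30 on DSS. ASV392 was another, with 36, 29, 0 and 15 counts on water and 0, 306, 0 and 56 on DSS, where it was at least 30.2-fold lower in KO mice (edgeR adjusted p = 0.0366) and at least 6.22-fold without WT mouse 2. The call on DSS was lost without WT mouse 2 (edgeR adjusted p = 0.0685), WT mouse 4 (0.0542) or any 1 KO mouse on DSS (0.0597 to 0.0659). ASV495, ASV521 and ASV392, like ASV543 and the ASVs of UCG-003 and UCG-007, were among the 59 members counted in no KO mouse.

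On the KO side, ASV114 had 681, 581, 14 and 3 counts in KO mice on water and 577, 288, 265 and 475 on DSS, against 0, 12, 0 and 0 and 7, 10, 13 and 4 in WT mice. It was 107-fold higher on water (edgeR adjusted p = 0.00947), or 66.4-fold without KO mouse 1, and 47.2-fold higher on DSS (edgeR adjusted p = 0.0237). The WT mean on water came from mouse 2 only and lay at the floor (0.00311%), so without that mouse the 107-fold is a bound. On water the groups overlapped, with KO mouse 4 below WT mouse 2. The call on DSS was lost without WT mouse 1 (edgeR adjusted p = 0.0541) or WT mouse 4 (0.0556). ASV595 was counted in KO mice only, at 18, 3, 10 and 3 on water and 53, 50, 57 and 55 on DSS. It was at least 17.9-fold higher on DSS (edgeR adjusted p = 0.00335). ASV394 had 157, 156, 100 and 38 counts in KO mice on DSS and 2, 0, 0 and 0 in WT mice on DSS (edgeR adjusted p = 0.0252), and on water it was counted in KO mouse 1 only, at 23. Its call on DSS was lost without WT mouse 2, 3 or 4 (edgeR adjusted p from 0.0542 to 0.0564). ASV97, counted in all 16 mice, had 198, 1474, 103 and 656 counts in KO mice on water and 12, 143, 28 and 78 in WT mice on water. It was 9.31-fold higher (edgeR adjusted p = 0.033), or 4.89-fold without KO mouse 2 and 15.5-fold without WT mouse 2. The call for ASV97 was lost without KO mouse 2 (edgeR adjusted p = 0.116) or KO mouse 4 (0.0513). It was also lost without WT mouse 1 (0.0705), 3 (0.0744) or 4 (0.0565) in the same test. ASV26, the second most abundant member, reached 2221 counts in KO mouse 4 on water and 779 to 1543 in KO mice on DSS, against 194 to 429 in WT mice on DSS. The last 2 groups did not overlap, but the difference did not pass (edgeR adjusted p = 0.0545), nor did that on water (0.061).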

How the data were processed

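The authors deposited 2 tables of 16S counts per ASV with equal values, 1 with a taxonomic name for each ASV. The deposited counts sum to 96469 in every library, so the libraries do not differ in total. The sources used here give neither the depth before the totals were made equal nor the amplicon region, ASV caller or taxonomy database. Libraries were sequenced as paired-end 250 bp reads, per the labels. The protocols in the labels describe an RNA-seq preparation, which is not that of a 16S table, so the template (DNA or RNA) is not given. Samples were matched to columns by library name and to groups by title.

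Counts were summed by genus-level group (147, of which 123 were tested), with ASVs lacking a genus under their lowest named rank. ASVs, groups and families that reached 10 counts in total and were seen in 3 or more libraries entered the robust quasi-likelihood fit and test of edgeR 4.0.16 (R 4.3.3), scaled by library total, with all 16 libraries in 1 fit, Benjamini-Hochberg adjustment over all features of the level and a threshold of 0.05. The code was tested on simulated data. Family share, observed ASVs and Shannon index (natural log) were compared by exact permutation over 70 arrangements, two-sided (Python 3.11.15, scipy 1.17.1, numpy 2.4.6, pandas 2.3.3, matplotlib 3.10.9). A fold is a ratio of mean shares, or a bound against 3 counts per library where a group was at 0, and is left out where a group mean lay between 0 and that floor. Alternatives were TMM factors, median-ratio size factors, limma 3.58.1 on centred log-ratios (pseudocount 0.5), DESeq2 1.42.0, a replicate block, no filter, a filter of 6 libraries, only the compared groups, traces between DSS groups set to 0, and each mouse left out.

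ASVs named were the 10 most abundant members and, per pairwise comparison, up to 5 at either end of the log2 fold changes of called members whose mean in some group reached 0.05%. Others are marked as chosen after their values were seen. Members and lists were chosen with earlier results of these data known. Each sample is a separate mouse per the labels. Same-numbered mice of different groups did not deviate together (24 pairs, r from −0.0944 to 0.0714, median −0.0157). No libraries were duplicates. Reagent-associated genera held at most 0.013% of counts in a group mean.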

Additional observations from a re-analysis of the deposited data

Results flagged for a closer look

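In 172 groups of 4 mice checked for the family, its genera and the named ASVs, 22 had a mouse far from the other 3 by Dixon's criterion. For normally distributed values chance flags about 1 in 20 groups, but these counts do not meet that condition. A group with a count in 1 mouse only is always flagged, and a group without counts never is. The number flagged therefore cannot show an excess of outliers. Many of the single ASVs had counts in 1 mouse of the group only. In WT mice on water, mouse 3 stood apart for NK4A214_group at 0.0881% and for ASV87 at 0.086%, mouse 1 for ASV310 at 0.824%, mouse 2 for ASV114 at 0.0124%, and mouse 4 for ASV413 at 0.0332% and ASV390 at 0.00933%. In WT mice on DSS, mouse 2 stood apart for the ASVs without a genus name at 5.00% and for ASV258 at 0.00622%, mouse 1 for ASV265 at 0.83% and ASV394 at 0.00207%, and mouse 4 for ASV198 at 0.0684%. In KO mice on water, mouse 4 stood apart for ASV26 at 2.3% and ASV101 at 0.258%, and mouse 1 for ASV41 at 0.579%, ASV551 at 0.289% and ASV394 at 0.0238%. In KO mice on DSS, mouse 2 was low for Colidextribacter at 1.05%, mouse 3 stood apart for ASV101 at 0.107%, ASV551 at 0.0145% and ASV310 at 0.057%, and mouse 4 for ASV312 at 0.00311% and ASV390 at 0.226%.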

How the results depend on the processing

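No called value of the genera or the named ASVs changed sign under the alternatives listed above. For DSS in WT mice 6 members were called, 12 by DESeq2, 15 on centred log-ratios and 2 with a replicate block, and 3 to 8 with 1 mouse left out. For DSS in KO mice 9 were called, 19 by DESeq2, 26 on centred log-ratios, 5 with the replicate block and 5 with traces set to 0, and 4 to 9 with 1 mouse left out. For KO against WT mice, the block left 22 of 45 calls on water and 18 of 40 on DSS, and leaving out 1 mouse gave 28 to 46 and 22 to 43. The interaction went from 0 to 10 by DESeq2, 14 on centred log-ratios, 2 with no filter, 2 with a filter of 6 libraries, 1 with the block and 1 with traces set to 0, and 0 to 2 with 1 mouse left out. Genus-level calls for DSS in WT mice went from 0 to 1 on centred log-ratios. In KO mice they went from 0 to 1 by DESeq2, on centred log-ratios, with a filter of 6 libraries and with the block. They went to 2 with only the compared groups, and were 0 to 1 with 1 mouse left out. The other genus counts with 1 mouse left out were 3 to 4 for genotype and 0 otherwise. On centred log-ratios the ASVs without a genus name were also called higher in KO mice on water (limma adjusted p = 0.0297). The family share for DSS in KO mice passed as a share of Clostridia, at 8.33 points, and ranged from 2.21 to 4.29 points with 1 mouse left out. The other shares then ranged from 0.141 to 2.38 for DSS in WT mice, 1.51 to 2.95 for genotype on water and 2.96 to 5.66 on DSS. Observed ASVs for DSS in KO mice differed by 14.75 in pairs by mouse number (exact permutation p = 0.125, the smallest possible) and by 13.8 to 16.4 with 1 mouse left out (each at 0.0571, again the smallest). For KO against WT mice on DSS they differed by 14.5 at 10 counts. With 1 mouse left out they ranged from −7.25 to 2.75, −10.1 to −4.08 and 5 to 15 for DSS in WT mice and genotype on water and DSS. The Shannon difference ranged from −0.689 to −0.409, −0.218 to −0.0201, −0.368 to −0.16 and 0.0307 to 0.311 in the 4 comparisons, and the family interaction from −0.0212 to 0.547. Its fits with median-ratio size factors, DESeq2 and other filters were added after seeing the data. Same-numbered mice share only a number, so the block removes degrees of freedom without a known pairing. For the 57 calls of named ASVs and groups, 112 values with 1 mouse left out fell short of the threshold. The causes of these changes were not tested. All deposited libraries had equal totals. The depth before that step is not known, so its effect on which members were counted could not be tested.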

Other observations

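Over the 16 mice, the genus-level groups outside the family whose shares ranked most like that of ASV17 were unclassified Desulfovibrionaceae (Spearman rho 0.76), Mucispirillum (0.71) and Anaerostipes (0.63). These are descriptions over mice of 4 groups and libraries of equal total counts.

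Counts in ASVs never seen in the other genotype made up 26.1% to 31% of all counts in WT mice drinking water and 7.76% to 11.3% with DSS. In KO mice they made up 19.5% to 26.0% on water and 5.35% to 7.88% on DSS. Within Oscillospiraceae the same measure was 9.34% to 18.5% and 7.09% to 11.4% in WT mice and 3.04% to 11.5% and 2.55% to 7.97% in KO mice.

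In other families of the order, 33.9% of 62 tested Ruminococcaceae ASVs and 60% of 15 tested Butyricicoccaceae ASVs were called in KO against WT mice on water, beside 37.2% of Oscillospiraceae and 52.8% of all tested ASVs. On DSS the shares were 35.5% and 46.7%, beside 33.1% and 37.7%.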
